A study of Mus musculus with 25 samples.

Results

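The 43 genes described here are genes of hepatic stellate cells and of the extracellular matrix, measured by RNA sequencing of whole mouse liver. They were taken as a list of gene symbols by known function; no value entered the rule, but the list was drawn up with earlier results of these data known. All 43 were found in both cohorts of mice among 46499 loci at 20 weeks of age and 46052 loci at 39 weeks. The list held 6 fibrillar collagens and their partners, 7 basement membrane and beaded-filament collagens, 9 proteoglycans and glycoproteins, 8 crosslinking enzymes, proteases and inhibitors, 6 ligands and receptors, 4 contractile and cytoskeletal genes and 3 retinoid and secreted markers of stellate cells. Values are FPKM, fragments scaled to transcript length and to the size of the library, so that levels can be compared between genes of different length. A locus was tested when its mean over the cohort reached 1 FPKM, which 24 of the 43 genes did at 20 weeks and 31 did at 39 weeks. The 19 and 12 genes below that level are described by their values and by 1 alternative test. In both cohorts these were Acta2, Col5a1, Col5a2, Eln, Fbn1, Thbs1, Pdgfra, Mmp2, Lox, Loxl1, Loxl2 and Timp1, joined at 20 weeks by the 7 genes Col1a1, Col6a1, Col6a2, Col6a3, Col15a1, Pdgfrb and Des.

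Hepatic stellate cells lie between hepatocytes and the sinusoidal endothelium and store vitamin A as retinyl esters, which Lrat makes. After chronic injury they can turn into contractile myofibroblasts that express Acta2 and Tagln, lose their retinoid stores and secrete fibrillar collagens, the main protein of a liver scar, under signals that include TGF-beta and PDGF. The fibrillar trimer of Col1a1 and Col1a2 is bundled with Col3a1 and spaced by small proteoglycans such as Dcn and Lum, crosslinked by Lox enzymes and degraded by metalloproteinases, which the Timp proteins inhibit. Several matrix genes are not particular to stellate cells in liver: hepatocytes secrete plasma fibronectin from Fn1 and also express Col18a1, and endothelial cells make type IV collagen.

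All mice were C57BL/6 and were labelled either Ncoa5+/-, with 1 targeted copy of the nuclear receptor coactivator gene Ncoa5, or wild type. At 20 weeks there were 4 untreated mice labelled Ncoa5+/- and 4 untreated wild type mice. At 39 weeks there were 5 mice labelled Ncoa5+/- on metformin, 5 untreated mice labelled Ncoa5+/-, 3 wild type mice on metformin and 4 untreated wild type mice. Treated mice drank water with metformin, a drug for diabetes, for 31 weeks, starting when they were 8 weeks old, at a dose near 250 mg/kg per day. The cohorts were sequenced at different facilities on different instruments, so values were compared within a cohort only. Bulk liver RNA mixes all cells of the organ, so fewer cells of a type and less RNA per cell cannot be told apart.

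Ncoa5 itself did not separate the genotype labels. It ranged from 2.9 to 5.03 FPKM in livers labelled Ncoa5+/- and from 3.11 to 5.3 FPKM in wild type livers at 20 weeks. At 39 weeks it ranged from 3.07 to 3.88 FPKM and from 2.63 to 4.42 FPKM in treated and untreated livers labelled Ncoa5+/-, against 3.58 to 6.64 FPKM and 3.6 to 4.68 FPKM in treated and untreated wild type livers. Genotype below therefore means the label. Summed over all loci, a library held 695645 to 1613500 FPKM in the 20-week cohort and 857291 to 2089980 FPKM in the 39-week cohort. The highest sums were those of wild type replicate 4 at 20 weeks and untreated replicate 3 of the Ncoa5+/- label at 39 weeks. In these libraries the 50 highest loci took 78.7% and 78.3% of the sum. They took 72.5% in treated replicate 5 of the Ncoa5+/- label and 43% to 60.7% in all other libraries. No counts are in these files, so the depth in fragments is unknown. Relative to one another, the FPKM worth of 1 fragment spanned 1.32-fold over 7 libraries at 20 weeks and 1.55-fold over 17 libraries at 39 weeks. Wild type replicate 3 at 20 weeks gave no clear ratio and is not in that span. It had 22259 loci above 0, where the other 7 libraries of its cohort had 19531 to 20186. At 20 weeks, wild type replicates 3 and 4, whose titles carry a C before the number while the other 6 do not, stood apart from the other 6 libraries, both lying above or both below all of them at 14.9% and 20.9% of the loci that reached 1 FPKM.

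Promoter sequences of 28 of the 43 genes were matched in the RefSeq table of GRCm38.p6, as windows of 250 bases before to 50 bases after an annotated start. Those of Acta2 and Col1a2 are shown because these genes encode the marker actin of the myofibroblast and a chain of its main collagen. In the Acta2 window (chr19:34255324-34255623, minus strand) the capitals mark CCCTATATGG, which begins 84 bases before the RefSeq start, and CCTTGTTTGG, 34 bases before it. They also mark TATATAA, 8 bases after it. These distances hold for the RefSeq start alone. On this strand the deposited Acta2 locus begins further along, at chr19:34255336, so every marked stretch lies before the start of that locus. In the Col1a2 window (chr6:4505368-4505667, plus strand) the capitals mark CCAAT, 109 bases before the RefSeq start, and the same letters on the other strand, whose first base in the window is at that start itself. The deposited Col1a2 locus begins before this window, at chr6:4504814, so these distances too hold for the RefSeq start alone.
Acta2: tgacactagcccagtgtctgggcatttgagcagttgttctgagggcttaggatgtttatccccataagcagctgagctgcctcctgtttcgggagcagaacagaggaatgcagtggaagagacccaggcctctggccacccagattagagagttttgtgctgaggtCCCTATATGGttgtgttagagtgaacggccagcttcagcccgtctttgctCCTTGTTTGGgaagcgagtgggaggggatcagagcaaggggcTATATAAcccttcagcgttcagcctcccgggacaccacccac
Col1a2: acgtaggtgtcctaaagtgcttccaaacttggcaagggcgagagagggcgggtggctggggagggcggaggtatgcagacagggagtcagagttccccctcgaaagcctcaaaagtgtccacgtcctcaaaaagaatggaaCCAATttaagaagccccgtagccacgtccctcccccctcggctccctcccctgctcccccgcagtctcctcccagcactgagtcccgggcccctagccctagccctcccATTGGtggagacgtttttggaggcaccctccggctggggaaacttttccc
Motifs were searched on both strands. CCCTATATGG and CCTTGTTTGG are each a CArG box, the element bound by serum response factor in contractile genes, with 1 other base in its centre. Such a match was in 8.5% of all 32817 windows and in 7 of the 28 genes, and the strict CArG box was in 1.63% of all windows and in 0 of the 31 windows of listed genes. TATATAA was in 3.25% of all windows and, among the listed genes, in Acta2. CCAAT was in 37.4% of all windows and in 11 of the 28 genes. A match of letters describes the sequence and does not show binding.

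Cohort means of the 43 genes spanned 0.0348 to 243 FPKM at 39 weeks. Fn1, which encodes fibronectin, averaged 238 FPKM over the cohort at 20 weeks and 243 FPKM at 39 weeks, and Col18a1, the source of endostatin, averaged 167 and 238 FPKM. These 2 genes alone made up 38.7% and 27.2% of the summed FPKM of the 43 genes at 20 weeks, and 28.3% and 27.7% at 39 weeks. Ecm1, a secreted matrix protein, followed with 52.9 and 103 FPKM, and Dcn, the collagen-binding proteoglycan decorin, with 46.1 and 60 FPKM. Bgn, Sparc, Colec11, Vim, Mmp14 and Reln completed the highest 10 in both cohorts. The order of the 43 genes was close to the same at both ages, with a Spearman rho of 0.98 between the ranks of the 43 means, given as a description. The chains of type I collagen were low: Col1a1 averaged 0.557 and 1.13 FPKM and Col1a2 1.15 and 2.02 FPKM. Their partner Col3a1 was higher, at 3.42 and 6.54 FPKM. The actin gene Acta2 averaged 0.812 and 0.854 FPKM. Lox, a lysyl oxidase that crosslinks collagen and elastin, was lowest in both cohorts at 0.0546 and 0.0348 FPKM. In the files' build, GRCm38.p5, the locus of Fn1 is chr1:71585520-71662843, and Dcn (chr10:97479500-97518162) and Lum (chr10:97565501-97572703) lie next to each other. Reln has a second locus over the same span that is listed at or near 0. Col15a1 has one at 39 weeks that averaged 0.841 FPKM beside 1.43 FPKM for the first, and the values given for Col15a1 are those of the first alone.

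**Figure D1:**
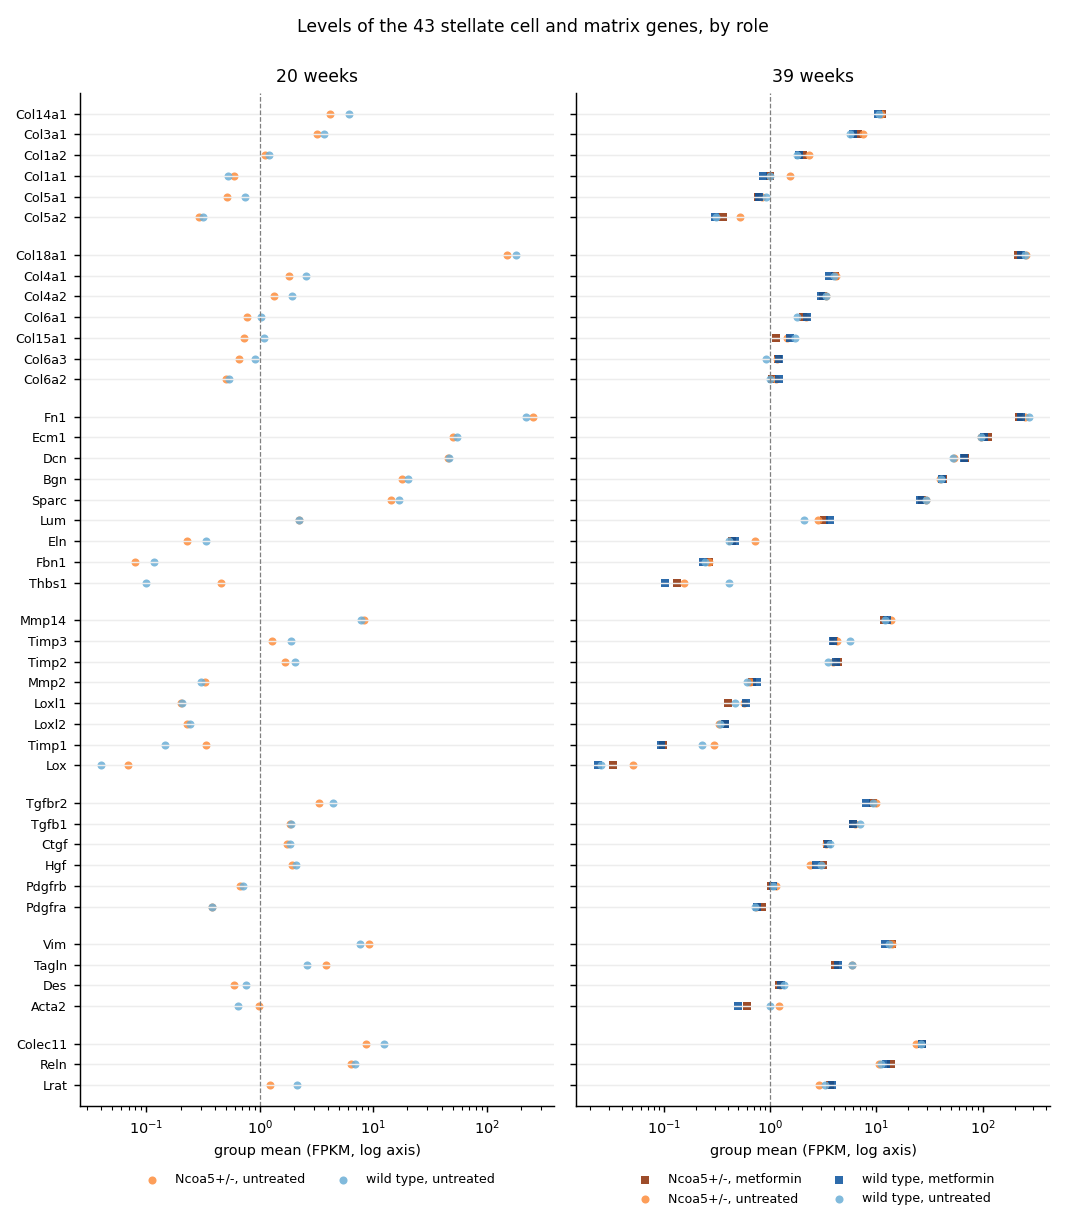
Group means of the 43 genes in FPKM on a log axis, at 20 weeks (left) and 39 weeks (right), ordered by role and level, with the 1 FPKM limit dashed. Fn1 and Col18a1 lie above 100 FPKM in every group, Col1a1 and Acta2 lie near 1 FPKM, and the group means of most genes lie on top of one another.

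The list's name was checked against markers that are not in it. Of 13 stellate cell markers, 8 reached 1 FPKM at 20 weeks and 11 at 39 weeks, so the cell type is visible in these livers. Their summed level ran from 52.8 to 70.5 FPKM in livers labelled Ncoa5+/- and from 59.3 to 70 FPKM in wild type livers at 20 weeks. At 39 weeks it ran from 114 to 128 FPKM and from 95.1 to 199 FPKM in treated and untreated livers labelled Ncoa5+/-, against 97.5 to 112 FPKM and 86.7 to 109 FPKM in treated and untreated wild type livers. None of 6 mesothelial markers and 1 of 6 portal fibroblast markers reached 1 FPKM. Of 6 smooth muscle markers 2 reached it, and Actg2, Cnn1 and Lmod1 stayed under 0.1 FPKM in both cohorts. All 10 sinusoidal endothelial and all 11 macrophage markers reached 1 FPKM.

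No gene of the list passed the test in any of the 9 comparisons, in which limma was fitted to log2(FPKM + 1) over all tested loci and p was adjusted by Benjamini-Hochberg over all of them. The comparisons in which other loci were called were sparse as well. In untreated mice at 39 weeks the genotype label called 30 of 11441 loci (0.262%), in treated mice 18 (0.157%), and over all 17 mice, adjusted for treatment, 63 (0.551%). Treated livers labelled Ncoa5+/- against untreated wild type livers gave 30 called loci (0.262%), and metformin over both genotypes gave 23 (0.201%). Genotype at 20 weeks, metformin within either genotype and the interaction of the 2 factors each called 0 loci (0%). A share of 0 among 24 or 31 genes is near each of these backgrounds.

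On the scale of FPKM + 1, the 95% interval of the fold change lay within a 2-fold change either way for all 24 tested genes at 20 weeks, where this held for 85.2% of all tested loci. It did so for all 31 genes in both genotype comparisons at 39 weeks and for metformin in mice labelled Ncoa5+/-, where the shares over all tested loci were 93.7%, 93.6% and 94.6%. For metformin in wild type mice it held for 30 of 31 (92.1% of all loci), and for the interaction for 29 of 31 (88.3%). Within a 1.5-fold change lay 13 of 24 genes for genotype at 20 weeks, beside 50.7% of all loci. At 39 weeks 22 of 31 genes did for genotype in untreated mice, beside 81.3% of all loci, and 23 of 31 for metformin in mice labelled Ncoa5+/-, beside 83.5%. Among the comparisons of 2 groups the median half-width of the intervals was largest at 20 weeks, at 0.39 on the log2 scale over 24 genes. The widest single interval was in metformin in wild type mice, with a half-width of 0.70, beside 0.61 at 20 weeks. All fold changes are of FPKM + 1, which understates the change of genes near or below 1 FPKM and narrows their intervals. With a pseudocount of 0.1 on the same loci, 18 of 24 intervals lay within a 2-fold change for genotype at 20 weeks, beside 76% of all loci, and those of Col14a1, Col4a1, Col4a2, Lrat, Tagln and Timp3 did not. The count was 29 of 31 for genotype in untreated mice at 39 weeks (89.8% of all loci), with Col1a1 and Timp3 beyond, and 30 of 31 for metformin in mice labelled Ncoa5+/- (91.2%), with Col1a1 beyond.

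**Figure D2:**
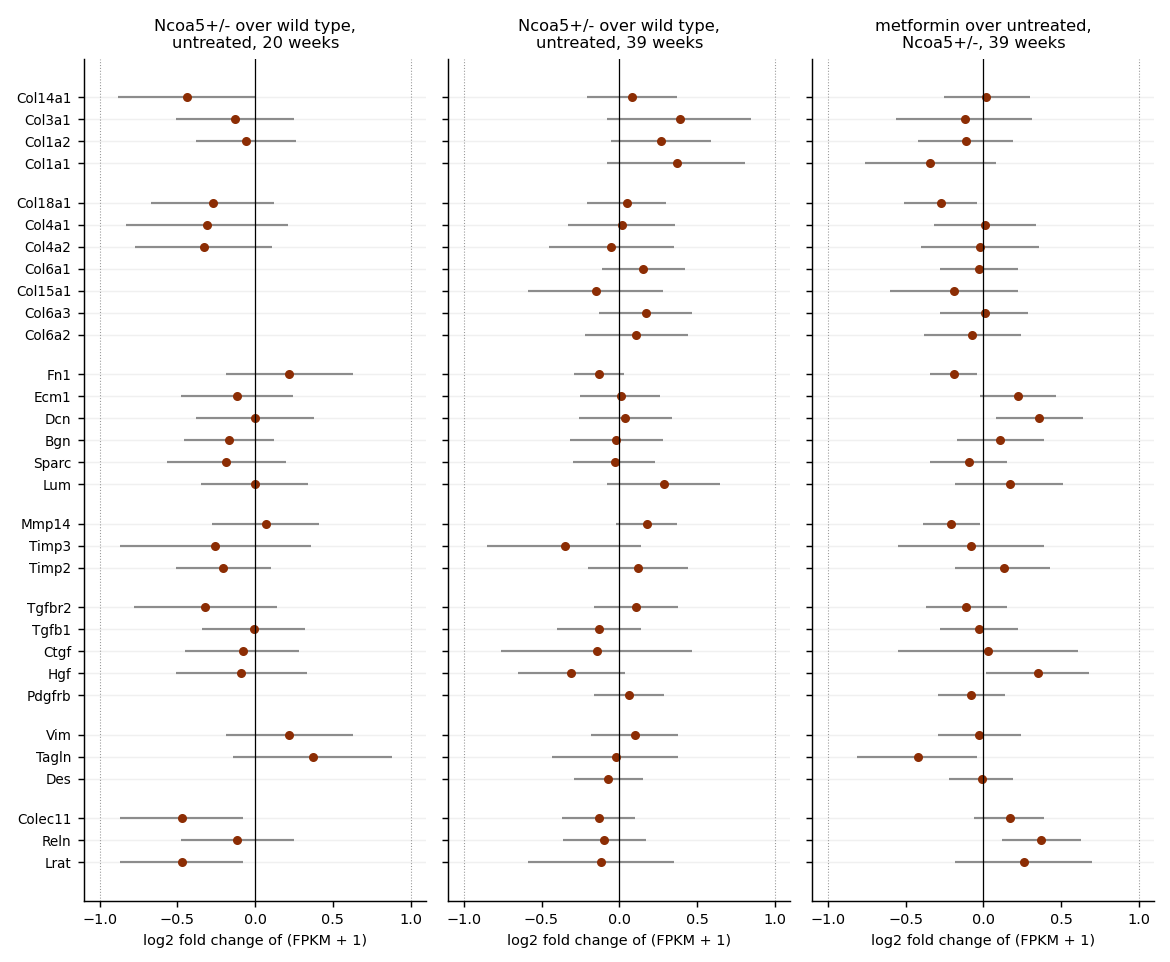
Log2 fold changes of FPKM + 1 with 95% intervals from limma for the genes that reached 1 FPKM, in 3 comparisons, ordered by role; dotted lines mark a 2-fold change. Every interval stays inside the dotted lines, and most include 0.

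For genotype at 20 weeks, 20 of 24 tested genes had a lower mean on the log scale in livers labelled Ncoa5+/-. The other 4 had a higher mean, as 54.4% of all tested loci did. The median log2 fold change of the 24 was -0.13, beside 0.03 for all tested loci. At an unadjusted p under 0.05 there were 3 genes, all lower in livers labelled Ncoa5+/-, or 12.5% of those tested beside 7.48% of all loci. All 3 of them, Lrat, Colec11 and Col14a1, missed the adjusted threshold.

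Lrat, the enzyme that esterifies retinol, stood at 1.59, 1.05, 1.19 and 1.03 FPKM in livers labelled Ncoa5+/-, against 1.44, 1.74, 2.39 and 2.88 FPKM in wild type livers. The groups overlapped at the lowest wild type liver, and the 2 highest values belonged to wild type replicates 3 and 4. The log2 fold change was -0.47 ± 0.17 (SE, limma, adjusted p = 0.603). Colec11, a secreted lectin of innate immunity made by stellate cells, stood at 10.2, 10.1, 8.21 and 6.24 FPKM in livers labelled Ncoa5+/-, against 9.7, 13.8, 13.6 and 12.3 FPKM in wild type livers. Only wild type replicate 1 lay among the livers labelled Ncoa5+/-, and the log2 fold change was -0.47 ± 0.17 (SE, limma, adjusted p = 0.603). Col14a1, a collagen that sits on the surface of fibrils, stood at 5.21, 4.54, 3.62 and 3.21 FPKM in livers labelled Ncoa5+/-, against 3.95, 6.08, 6.86 and 7.35 FPKM in wild type livers. Again the lowest wild type liver was replicate 1, inside the other group, and the log2 fold change was -0.44 ± 0.19 (SE, limma, adjusted p = 0.603).

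Wild type replicates 3 and 4 stood apart for these genes as well. Both lay above all 6 other livers for 8 of the 24 genes (33.3%, beside 14.9% of loci that reached 1 FPKM). These were Col14a1, Col4a1, Col4a2, Ecm1, Lrat, Sparc, Tgfbr2 and Timp3. Both lay below all 6 for Fn1 alone (4.17%, beside 20.9% of those loci). Timp3, an inhibitor of metalloproteinases whose gene lies inside Syn3, so that reads of both may be mixed, was at 2.77 and 2.97 FPKM in this pair and at 0.811 to 1.47 FPKM in the other 6. Without the pair, the median log2 fold change of the 24 genes was -0.04 and that of Lrat -0.23 ± 0.17 (SE, limma, adjusted p = 1). That fit keeps wild type replicates 1 and 2 alone. Since the pair was highest for Lrat, leaving it out had to shrink the Lrat estimate, so this fit is a description only. With weights per library in place of equal ones, the log2 fold change of Lrat was -0.66 ± 0.16 (SE, limma, adjusted p = 0.073), still short of the threshold. Macrophage markers moved with the same mice: all 11 had a lower mean in livers labelled Ncoa5+/-, with a median log2 fold change of -0.65, and their summed level ran from 58.5 to 101 FPKM in livers labelled Ncoa5+/- and from 69.5 to 177 FPKM in wild type livers. Endothelial markers had a median of -0.21, with 8 of 10 lower. Their part in the values of the 24 genes was not tested.

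By role at 20 weeks, all 3 tested fibrillar collagens and partners, all 3 basement membrane collagens and all 4 ligands and receptors had negative log2 fold changes. So did all 3 stellate markers of the list. The 8 tested stellate markers outside the list did not share this: 4 had a positive and 4 a negative estimate, with a median of -0.05. Col4a2, a chain of basement membrane collagen, had -0.33 ± 0.19 and Tgfbr2, the type II receptor of TGF-beta, -0.32 ± 0.20 (SE; limma, adjusted p = 0.607 and 0.611). Tgfbr2 stood at 4.63, 3.41, 2.67 and 2.65 FPKM in livers labelled Ncoa5+/-, against 3.51, 3.26, 5.12 and 5.88 FPKM in wild type livers, with the pair of wild type replicates 3 and 4 on top. The 4 genes of the list with a positive estimate were Tagln, Fn1, Vim and Mmp14. Tagln, the actin-binding protein transgelin, stood at 2.29, 3.03, 5.8 and 4.11 FPKM in livers labelled Ncoa5+/-, against 2.42, 2.84, 2.01 and 3.19 FPKM in wild type livers. A single liver labelled Ncoa5+/-, replicate 3, was highest for Tagln, for Vim at 11.9 FPKM, for Mmp14 at 10.3 FPKM and for Acta2 at 2.3 FPKM. Acta2, which was below the level for testing, was otherwise between 0.393 and 0.919 FPKM in both groups.

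Dcn and Lum, neighbouring proteoglycan genes, had the smallest differences at 20 weeks. Dcn averaged 46 ± 6.83 FPKM in livers labelled Ncoa5+/- and 46.2 ± 8.34 FPKM in wild type livers (SD, n = 4 each), and Lum averaged 2.21 ± 0.544 and 2.19 ± 0.324 FPKM. The 95% interval of the log2 fold change was -0.38 to 0.38 for Dcn and -0.35 to 0.34 for Lum.

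In untreated mice at 39 weeks the list as a whole did not lean either way. Of 31 tested genes 17 had a positive log2 fold change for the Ncoa5+/- label, as 44.5% of all tested loci did. The median was 0.02 beside -0.02 for all tested loci. An unadjusted p under 0.05 was reached by 0 genes, beside 5.62% of all loci. The smallest adjusted p was 0.913. The 4 tested fibrillar collagens and partners all had positive estimates, with a median of 0.32.

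Col3a1, the partner of type I collagen in fibrils, stood at 9.09, 6.9, 9.88, 5.56 and 5.7 FPKM in untreated livers labelled Ncoa5+/-, against 9.23, 4.35, 3.61 and 5.28 FPKM in untreated wild type livers. The single wild type liver at 9.23 FPKM overlapped the highest livers of the other group, and the log2 fold change was 0.39 ± 0.22 (SE, limma, adjusted p = 0.913). Col1a1, the larger share of the type I trimer, stood at 1.53, 1.29, 2.63, 0.991 and 1.24 FPKM in untreated livers labelled Ncoa5+/-, against 1.83, 0.626, 0.355 and 1.19 FPKM in untreated wild type livers. Its log2 fold change was 0.37 ± 0.21 (SE, limma, adjusted p = 0.913), and that of Col1a2 0.27 ± 0.15 (SE, adjusted p = 0.913). Col1a2 stood at 2.39, 1.94, 3.06, 2.01 and 2.07 FPKM in untreated livers labelled Ncoa5+/-, against 2.7, 1.5, 1.12 and 1.77 FPKM in untreated wild type livers. For all 3 collagens wild type replicate 1 was the highest wild type liver and lay inside the range of the other group. Over fits that each left out 1 mouse the log2 fold change ran from 0.24 to 0.62 for Col3a1, from 0.20 to 0.55 for Col1a1 and from 0.15 to 0.42 for Col1a2, lowest without wild type replicate 3 and highest without wild type replicate 1. Col3a1 is deposited as a locus joined with another gene model, so its reads may include those of that neighbour.

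Mmp14, a membrane-bound metalloproteinase, stood at 13, 12.7, 13.4, 14.4 and 15.5 FPKM in untreated livers labelled Ncoa5+/-, against 11.5, 11.3, 11.4 and 14.3 FPKM in untreated wild type livers. All wild type livers but replicate 4 lay below the lowest liver labelled Ncoa5+/-, and the log2 fold change was 0.18 ± 0.09 (SE, limma, adjusted p = 0.913). Hgf, the hepatocyte growth factor secreted by stellate and other non-parenchymal cells, stood at 2.63, 1.03, 2.21, 3.25 and 2.58 FPKM in untreated livers labelled Ncoa5+/-, against 3.26, 3.45, 2.44 and 2.98 FPKM in untreated wild type livers. The value of 1.03 FPKM in replicate 2 was the lowest of all 17 livers; the log2 fold change was -0.31 ± 0.16 (SE, limma, adjusted p = 0.913) and between -0.40 and -0.14 when single mice were left out in turn.

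Of the 40 genes with a mean of at least 0.2 FPKM, 2 had groups that did not overlap, Col5a2 above and Fn1 below, where 1.18% and 0.739% of all such loci did. Fn1 stood at 250, 259, 258, 250 and 231 FPKM in untreated livers labelled Ncoa5+/-, against 280, 282, 265 and 264 FPKM in untreated wild type livers. The highest liver labelled Ncoa5+/- was at 259 FPKM and the lowest wild type liver at 264 FPKM, and the log2 fold change of -0.13 ± 0.08 missed the threshold (SE, limma, adjusted p = 0.913). Col5a2, a minor fibrillar chain that helps set fibril diameter, stood at 0.503, 0.776, 0.52, 0.417 and 0.349 FPKM in untreated livers labelled Ncoa5+/-, against 0.348, 0.265, 0.334 and 0.287 FPKM in untreated wild type livers. It was tested with a pseudocount of 0.1 and a limit of 0.2 FPKM, an alternative chosen after its values were seen, and gave a log2 fold change of 0.55 ± 0.22 (SE, limma, adjusted p = 0.702). Under the same alternative Eln, the elastin gene, gave 0.69 ± 0.25 (SE, limma, adjusted p = 0.592), from 0.534, 0.793, 0.966, 0.567 and 0.756 FPKM in untreated livers labelled Ncoa5+/-, against 0.537, 0.24, 0.411 and 0.462 FPKM in untreated wild type livers. Only replicate 1 of the untreated Ncoa5+/- label fell within the wild type range for Eln. This alternative reached 17 of the 19 genes below 1 FPKM at 20 weeks and 9 of the 12 at 39 weeks; 0 of them passed after adjustment in any of the 9 comparisons, and the smallest adjusted p was 0.189.

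Stellate, endothelial, macrophage and hepatocyte markers stood beside these values as follows. Of the 11 stellate markers tested, 5 had a positive and 6 a negative estimate, with a median of -0.03. All 11 macrophage markers had a negative estimate, with a median of -0.34 and summed levels of 154 to 418 FPKM in untreated livers labelled Ncoa5+/- and 243 to 608 FPKM in untreated wild type livers. Of 10 endothelial markers 9 were negative, with a median of -0.18. Of the 9 hepatocyte markers tested, 4 had a positive and 5 a negative estimate, with a median of -0.03. All 10 hepatocyte markers summed to 8060 to 10700 FPKM in untreated livers labelled Ncoa5+/- and to 15400 to 20400 FPKM in untreated wild type livers. That sum includes a marker left out of the test as a failed estimate. Single livers stood far from the rest: as the median deviation of the markers from the cohort mean on the log2 scale, macrophage markers were at -1.26 in untreated replicate 2 of the Ncoa5+/- label and at -0.37 to 0.37 in its other 4 livers, against 0.86 in wild type replicate 3 and -0.35 to -0.09 in the other 3 wild type livers. Endothelial markers were at -1.07 in the same replicate 2 and at -0.04 to 0.15 in the other 4 livers of its label, against -0.24 to 0.18 in wild type livers. None of these markers was called, and their part in the values above was not tested.

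In mice on metformin, the genotype comparison gave 0 genes at an unadjusted p under 0.05, beside 4.35% of all loci, and the smallest adjusted p was 1. The 3 genes with the smallest p were Vim, Tgfbr2 and Reln. Vim, the intermediate filament of mesenchymal cells, stood at 16, 13.9, 10.9, 13.2 and 15.4 FPKM in treated livers labelled Ncoa5+/-, against 12.7, 13 and 10.3 FPKM in treated wild type livers, with a log2 fold change of 0.19 ± 0.14 (SE). Tgfbr2 stood at 10.6, 9.88, 8.83, 6.75 and 9.83 FPKM in treated livers labelled Ncoa5+/-, against 7.43, 8.62 and 7.9 FPKM in treated wild type livers, with a log2 fold change of 0.17 ± 0.14 (SE). Both pairs of groups overlapped. Over all 17 mice, adjusted for treatment, 0 genes reached an unadjusted p under 0.05 for genotype, beside 6.54% of all loci, and 30 of 31 intervals lay within a 1.5-fold change, where 90.3% of all loci did. The smallest adjusted p there belonged to Fn1 at -0.11 ± 0.05 (SE, limma, adjusted p = 0.816), followed by Col3a1 at 0.26 ± 0.16 and Col1a2 at 0.18 ± 0.11 (adjusted p = 0.9 and 0.903).

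Metformin in mice labelled Ncoa5+/- gave 7 genes at an unadjusted p under 0.05, or 22.6% of the 31 tested beside 8.83% of all loci, and 0 after adjustment. Those with higher estimates were Reln, Dcn and Hgf, and those with lower ones were Fn1, Col18a1, Mmp14 and Tagln. The median over the 31 genes was -0.03, beside 0.00 for all tested loci, and 13 of 31 were positive, beside 50% of all tested loci. The untreated mice labelled Ncoa5+/- also served in the genotype comparison above, so the 2 sets of estimates share these 5 livers.

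Reln, the secreted glycoprotein reelin, which marks stellate cells in liver, stood at 14.1, 13.6, 13.8, 13.3 and 13.4 FPKM in treated livers labelled Ncoa5+/-, against 12.1, 7.48, 12.1, 11 and 9.49 FPKM in untreated livers of the same label. The groups did not overlap, which held for 0.706% of loci averaging 0.2 FPKM or more in this direction. The log2 fold change was 0.37 ± 0.12 (SE, limma, adjusted p = 0.418) and stayed between 0.27 and 0.43 when each mouse was left out in turn. Dcn stood at 71.4, 66.9, 77.5, 60.8 and 66.3 FPKM in treated livers labelled Ncoa5+/-, against 63.2, 37.3, 56.4, 57.9 and 55.1 FPKM in untreated livers of that label. Only the highest untreated liver, replicate 1, overlapped the treated ones, and the log2 fold change was 0.36 ± 0.13 (SE, limma, adjusted p = 0.472). It ran from 0.23 to 0.42 when each mouse was left out, and was 0.23 without untreated replicate 2, the liver at 37.3 FPKM.

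Fn1 stood at 216, 194, 221, 257 and 208 FPKM in treated livers labelled Ncoa5+/-, against 250, 259, 258, 250 and 231 FPKM in untreated livers of that label. Treated replicate 4, at 257 FPKM, lay among the untreated livers and the other 4 treated livers lay below all of them; the log2 fold change was -0.19 ± 0.07 (SE, limma, adjusted p = 0.472). Col18a1 stood at 247, 178, 185, 250 and 214 FPKM in treated livers labelled Ncoa5+/-, against 212, 306, 272, 256 and 250 FPKM in untreated livers of that label. The groups overlapped over much of their range, with a log2 fold change of -0.27 ± 0.11 (SE, limma, adjusted p = 0.526). Mmp14 stood at 13.6, 10.2, 10.7, 12.2 and 12.7 FPKM in treated livers labelled Ncoa5+/-, against 13, 12.7, 13.4, 14.4 and 15.5 FPKM in untreated livers of that label, and its log2 fold change was -0.21 ± 0.09 (SE, limma, adjusted p = 0.538).

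The contractile genes Tagln and Acta2 had lower means on metformin. Tagln stood at 5.29, 3.26, 3.04, 3.9 and 4.64 FPKM in treated livers labelled Ncoa5+/-, against 4.69, 8.1, 4.8, 4.15 and 7.42 FPKM in untreated livers of that label. Untreated replicates 2 and 5 lay above all treated livers, and the other 3 lay among them. Its log2 fold change was -0.42 ± 0.18 (SE, limma, adjusted p = 0.54). Acta2 stood at 0.652, 0.673, 0.221, 0.633 and 0.821 FPKM in treated livers labelled Ncoa5+/-, against 1.06, 2.47, 0.763, 0.438 and 1.34 FPKM in untreated livers of that label. Under the alternative with a pseudocount of 0.1 its log2 fold change was -0.80 ± 0.36 (SE, limma, adjusted p = 0.62), and that of Eln -0.65 ± 0.23 (SE, adjusted p = 0.557). The 2 tested smooth muscle markers had negative estimates as well, with a median of -0.24, and the summed level of the 6 ran from 2.97 to 4.71 FPKM in treated and from 4.37 to 6.26 FPKM in untreated livers labelled Ncoa5+/-. With Actg2, Cnn1 and Lmod1 under 0.1 FPKM, their part in the Acta2 and Tagln values was not tested.

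Among fibrillar collagens on metformin, Col1a1 stood at 1.26, 1.05, 0.704, 0.561 and 1.37 FPKM in treated livers labelled Ncoa5+/-, against 1.53, 1.29, 2.63, 0.991 and 1.24 FPKM in untreated livers of that label. Its log2 fold change was -0.34 ± 0.20 (SE, limma, adjusted p = 0.645), while those of Col1a2 and Col3a1 were -0.11 ± 0.14 and -0.12 ± 0.21. Over fits that each left out 1 mouse these ran from -0.42 to -0.20 for Col1a1, from -0.16 to -0.02 for Col1a2 and from -0.21 to -0.02 for Col3a1. Without untreated replicate 3, the liver at 2.63 FPKM of Col1a1, they were -0.20, -0.04 and -0.02. The 95% intervals of the log2 fold change were -0.76 to 0.08 for Col1a1, -0.42 to 0.19 for Col1a2 and -0.56 to 0.31 for Col3a1 on the scale of FPKM + 1. With a pseudocount of 0.1 the interval of Col1a1 was -1.32 to 0.16, which includes a 2-fold lower level on metformin. Endothelial markers had a median log2 fold change of 0.27, with 8 of 10 positive, and macrophage markers of 0.26, with 10 of 11 positive. Untreated replicate 2 was far below the rest for both lists, as given above; without it the untreated livers were at -0.04 to 0.15 for endothelial markers, where treated livers were at -0.03 to 0.20. Stellate markers outside the list had a median of 0.02, with 6 of 11 positive and 2 at an unadjusted p under 0.05 (18.2%, beside 8.83% of all loci). Of the 11, Lhx2, Rgs5 and Tmem56 were higher in every treated than in any untreated liver of the Ncoa5+/- label (27.3%, beside 0.804% of all tested loci), and 0 passed after adjustment. Their part in the Reln and Dcn values was not tested.

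**Figure D3:**
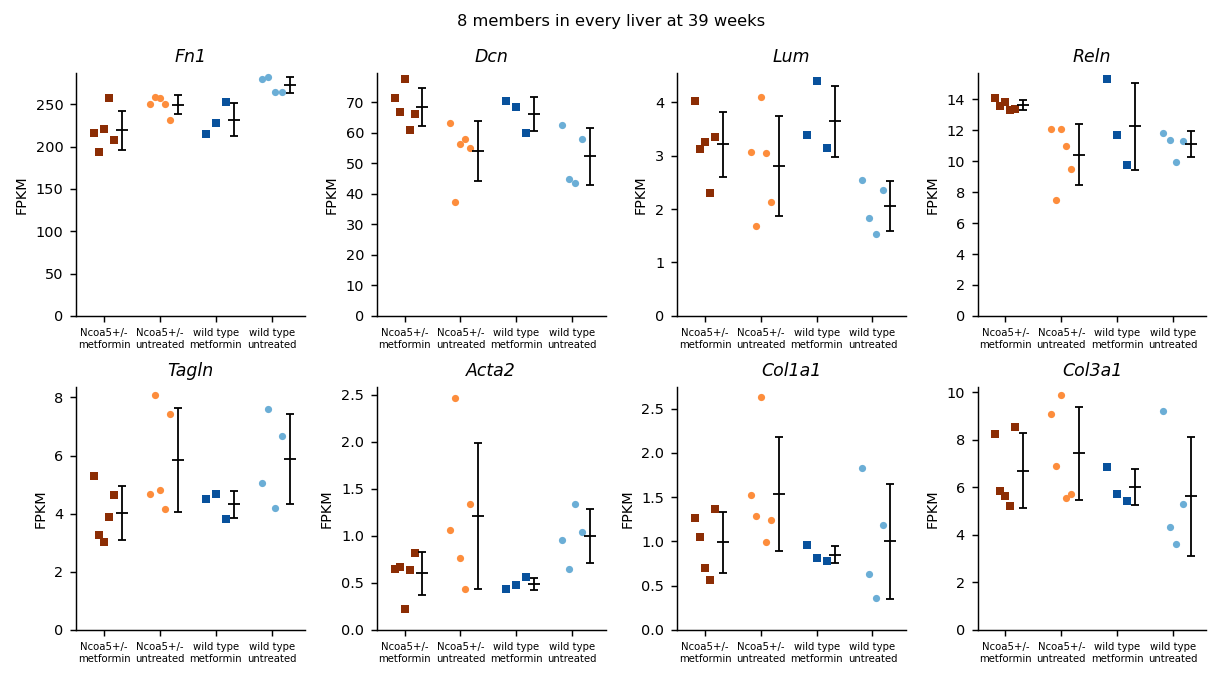
FPKM of 8 genes in each of the 17 livers at 39 weeks, from 0 on a linear axis, with the mean and SD of each group in black beside its points; squares are treated and circles untreated mice. Fn1 in untreated wild type livers and Reln in treated livers labelled Ncoa5+/- form tight clusters, while Acta2, Tagln and Col1a1 spread most in untreated livers.

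Metformin in wild type mice, with 3 treated and 4 untreated livers, gave 3 genes at an unadjusted p under 0.05, or 9.68% of those tested beside 9.35% of all loci, and 0 after adjustment. They were Lum, Dcn and Fn1. Groups that did not overlap were found for Lum in the higher direction, where 4.11% of loci averaging 0.2 FPKM or more did, and for Fn1 and Acta2 in the lower direction, where 3.5% did. Lum, the keratan sulphate proteoglycan lumican, stood at 3.39, 4.4 and 3.14 FPKM in treated wild type livers, against 2.55, 1.83, 1.53 and 2.35 FPKM in untreated wild type livers. The log2 fold change was 0.60 ± 0.20 (SE, limma, adjusted p = 0.37), which was the highest in size over the 9 comparisons among the genes that reached 1 FPKM. Dcn stood at 70.5, 68.3 and 60 FPKM in treated wild type livers, against 62.7, 45, 43.5 and 57.8 FPKM in untreated wild type livers, and its log2 fold change was 0.35 ± 0.16 (SE, limma, adjusted p = 0.516). The 2 Dcn groups overlapped at untreated replicate 1.

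Fn1 stood at 215, 228 and 253 FPKM in treated wild type livers, against 280, 282, 265 and 264 FPKM in untreated wild type livers, with a log2 fold change of -0.24 ± 0.09 (SE, limma, adjusted p = 0.399). Acta2 stood at 0.432, 0.481 and 0.561 FPKM in treated wild type livers, against 0.958, 0.643, 1.34 and 1.04 FPKM in untreated wild type livers. All 3 treated livers lay below the lowest untreated one, and under the alternative with a pseudocount of 0.1 the log2 fold change was -0.85 ± 0.43 (SE, limma, adjusted p = 0.614). Smooth muscle markers had a median of -0.31 over the 2 tested, with summed levels of 3.74 to 4.56 FPKM in treated and 5.12 to 6.47 FPKM in untreated wild type livers; their part in the Acta2 value was not tested.

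Over both genotypes, metformin gave 6 genes at an unadjusted p under 0.05, or 19.4% of the 31 tested beside 15.4% of all loci. Reln, Dcn and Lum had higher and Fn1, Tagln and Col18a1 lower estimates in treated mice. Fn1 came nearest to the threshold: it averaged 224 ± 21.4 FPKM in the 8 treated livers and 260 ± 15.7 FPKM in the 9 untreated ones (SD), a log2 fold change of -0.21 ± 0.05 (SE, limma, adjusted p = 0.0947). Without treated replicate 4 of the Ncoa5+/- label, the liver at 257 FPKM, Fn1 passed at -0.24 ± 0.05 (SE, limma, adjusted p = 0.0251), in a fit that called 126 loci in place of 23. Dcn averaged 67.7 ± 5.72 FPKM in treated and 53.2 ± 9.1 FPKM in untreated livers (SD), with a log2 fold change of 0.35 ± 0.10 (SE, limma, adjusted p = 0.11). The estimates of Tagln and Reln were -0.39 ± 0.13 and 0.27 ± 0.09 (SE, limma, adjusted p = 0.17 and 0.18). That of Acta2 under the alternative with a pseudocount of 0.1 was -0.82 ± 0.27 (SE, limma, adjusted p = 0.189). By 95% interval, 29 of 31 genes lay within a 1.5-fold change, where 89.2% of all loci did.

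Whether metformin acted differently by genotype was tested as an interaction. It gave 0 genes at an unadjusted p under 0.05, beside 2.79% of all loci, and the smallest adjusted p was 0.991. Hgf had the smallest p, with an interaction estimate of 0.46 ± 0.24 on the log2 scale (SE): treated and untreated livers averaged 3.15 ± 0.462 and 2.34 ± 0.825 FPKM under the Ncoa5+/- label (SD, n = 5 each), against 2.71 ± 0.138 FPKM (n = 3) and 3.03 ± 0.44 FPKM (n = 4) in wild type mice. Mmp14 followed with -0.25 ± 0.14 and Lum with -0.43 ± 0.25. The intervals were wide, with a median half-width of 0.44 on the log2 scale, and 15 of 31 genes lay within a 1.5-fold difference, beside 61.6% of all loci.

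Treated livers labelled Ncoa5+/- were also set against untreated wild type livers. At an unadjusted p under 0.05 there were 5 genes, or 16.1% of those tested beside 12.1% of all loci. Reln above and Fn1 below had groups without overlap, in directions where 2.18% and 1.92% of all loci averaging 0.2 FPKM or more did. Fn1 averaged 219 ± 23.4 FPKM in treated livers labelled Ncoa5+/- (n = 5) and 273 ± 9.79 FPKM in untreated wild type livers (SD, n = 4), a log2 fold change of -0.32 ± 0.08 (SE, limma, adjusted p = 0.101). Without treated replicate 4 it was -0.38 ± 0.07 (SE, limma, adjusted p = 0.016), past the threshold, with 76 loci called in place of 30. Dcn and Lum had log2 fold changes of 0.40 ± 0.14 and 0.46 ± 0.17, and Tagln of -0.44 ± 0.19 (SE, limma, adjusted p = 0.264, 0.295 and 0.367).

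The authors' deposited tables cover 2 of these comparisons with another method. For genotype at 20 weeks the authors' deposited table called 294 of 13975 tested loci (2.1%) and 1 of the 37 listed genes it tested, Thbs1. Thbs1, the matrix glycoprotein thrombospondin, has 0.4401 FPKM under the Ncoa5+/- label and 0.09602 FPKM in wild type there, a log2 fold change of 2.20 with q = 0.004135 in the authors' deposited table. Per mouse it stood at 0.142, 0.11, 0.638 and 0.942 FPKM in livers labelled Ncoa5+/-, against 0.085, 0.16, 0.0395 and 0.112 FPKM in wild type livers. The 2 livers at 0.638 and 0.942 FPKM set its mean, and the other 2 livers of that label lay within the wild type range. It lay below the level tested here, and under the alternative with a pseudocount of 0.1 its log2 fold change was 1.19 ± 0.57 (SE, limma, adjusted p = 0.62).

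For metformin in mice labelled Ncoa5+/- the authors' deposited table called 173 of 14159 loci (1.22%) and 0 of the 39 listed genes it tested. The nearest was Acta2, with 0.5817 FPKM treated, 1.167 FPKM untreated and a log2 fold change of -1.01 (q = 0.07187 in the authors' deposited table). Col1a1 had -0.58 (q = 0.1854), Eln -0.71 (q = 0.3825) and Dcn 0.31 (q = 0.4254) in the authors' deposited table.

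The level of the list varied widely between mice of the same group. As a measure free of level, each tested gene was compared with its own median over the cohort. At 39 weeks, of 31 genes, 24, 12, 13, 11 and 19 lay above it in the 5 treated livers labelled Ncoa5+/-, 18, 9, 22, 15 and 14 in the untreated livers of that label, 16, 10 and 8 in treated wild type livers, and 22, 7, 6 and 22 in untreated wild type livers. Each group but treated wild type held livers on both sides of 16. At 20 weeks, of 24 genes, 17, 9, 8 and 8 lay above the cohort median in livers labelled Ncoa5+/-, against 3, 17, 14 and 20 in wild type livers. The median deviation of the list from the cohort mean had an SD between mice of 0.13 at 20 weeks and 0.11 at 39 weeks. This SD is on the log2 scale and pooled within groups, so differences between groups do not enter it.

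**Figure D4:**
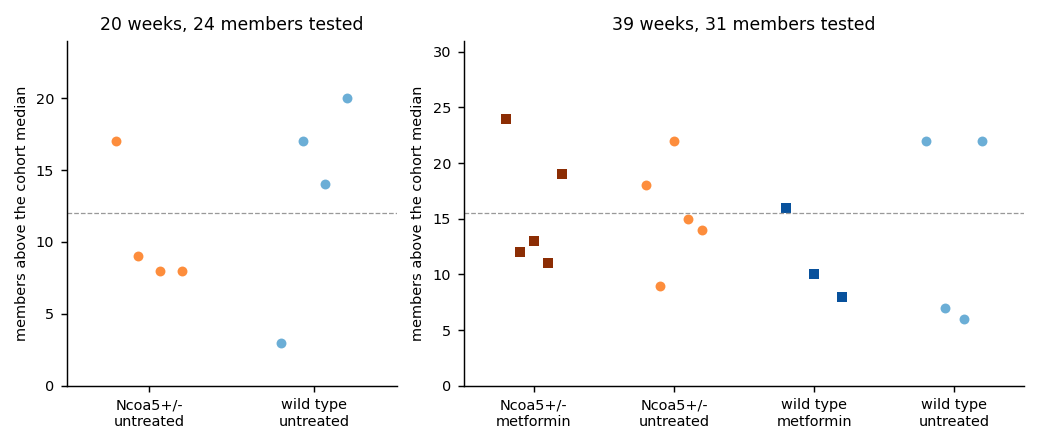
Number of tested genes of the list above their own cohort median in each liver, at 20 weeks (left, 24 genes) and 39 weeks (right, 31 genes); the dashed line marks 50% of the genes. Untreated wild type livers at 39 weeks split into 2 at 22 and 2 at 6 and 7, a spread as wide as that over all 17 livers but for the one at 24.

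One liver stood out among untreated mice labelled Ncoa5+/- at 39 weeks. Replicate 2 was the lowest of its group for 18 of 31 genes and the highest for 5. It was lowest for Dcn at 37.3 FPKM, Reln at 7.48 FPKM, Hgf at 1.03 FPKM and Col14a1 at 7.79 FPKM, and highest for Acta2 at 2.47 FPKM, Tagln at 8.1 FPKM, Col18a1 at 306 FPKM and Ctgf, the matricellular growth factor, at 6.03 FPKM. Its sinusoidal endothelial markers summed to 80.2 FPKM, the lowest of its group, where the median liver had 152 FPKM, and its macrophage markers summed to 154 FPKM, also the lowest, where the median liver had 287 FPKM. Without it, as without any other single mouse of that group, 0 genes of the list were called in any comparison.

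Further genes of the same pathways, outside the list, gave the same counts of calls. The 25 further TGF-beta and PDGF pathway genes included 12 that reached the tested level in the younger cohort and 16 in the older one, and 0 were called in any comparison. Of 19 collagen processing genes, such as the collagen chaperone Serpinh1, 10 and 11 were tested and 0 called. Of 30 other matrix genes, among them laminins and nidogens, 12 and 18 were tested and 0 called. For metformin in mice labelled Ncoa5+/-, 9 of 11 collagen processing genes had negative estimates, with a median of -0.12, and 1 reached an unadjusted p under 0.05, or 9.09% beside 8.83% of all loci. For the treated Ncoa5+/- label against untreated wild type the same list had 9 of 11 negative with a median of -0.19 and 3 at an unadjusted p under 0.05, or 27.3% beside 12.1% of all loci.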

How the data were processed

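Liver RNA of 25 mice was sequenced in 2 cohorts. Per the submitters' processing notes, the authors used Trimmomatic 0.33, TopHat2, Cufflinks, Cuffnorm and the build GRCm38.p5; other versions, the scaling method and any strand setting are not given in the sources used here. The deposited values per mouse are FPKM per locus. The authors' deposited comparison tables hold group FPKM, log2 fold changes, p-values and q-values, and their direction was turned so that positive means higher under the Ncoa5+/- label or on metformin. Where genes overlap (Timp3 with Syn3, Timp1 with Syn1, Col4a1 with Col4a2), reads may be mixed.

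The list, its role groups, the further pathway lists and the markers were chosen with earlier results of these data known. Named genes are those called, the 3 with the smallest p in each comparison and the highest of each role group; Acta2, Col1a1, Col5a2, Eln, Thbs1 and Timp3 were added after their values were seen. limma 3.58.1 in R 4.3.3 (lmFit, eBayes with a trend) was fitted to log2(FPKM + 1) over loci whose cohort mean reached 1 FPKM, with 2 groups at 20 weeks and 4 at 39 weeks, or additively for genotype and metformin. p was adjusted by Benjamini-Hochberg over all tested loci, with a threshold of 0.05. Loci at 0 in every mouse of 1 group and above 0 throughout another, a sign of a failed estimate, were left out (14 and 11 of those past the limit at 20 and 39 weeks); no listed gene was among them. The script was tested on simulated data. Replicate numbers follow accession order and pair no mice. Labels do not say whether libraries came from separate animals beyond their numbers, so p-values measure the spread between these samples. Other pseudocounts, limits, scalings, weights and fits without single libraries were tried.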

Additional observations from a re-analysis of the deposited data

Results flagged for a closer look

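Of 141 groups of 4 or 5 livers examined over the tested genes, 7 held 1 liver whose gap to the nearest other exceeded the 95% critical value of Dixon's test, and chance gives about 1 in 20. Among treated livers labelled Ncoa5+/-, Bgn was at 50.5 FPKM in replicate 1, where the others ran from 38.2 to 41.6 FPKM, and Col4a1 at 5.3 FPKM in replicate 5, where the others ran from 3.58 to 3.93 FPKM. Among untreated livers labelled Ncoa5+/- at 39 weeks, Col15a1 was at 2.55 FPKM in replicate 5 (others 1.05 to 1.44 FPKM), Col6a2 at 1.77 FPKM in replicate 3 (others 0.91 to 1.06 FPKM) and Ctgf at 6.03 FPKM in replicate 2 (others 2.32 to 3.13 FPKM). Among untreated wild type livers at 39 weeks, Mmp14 was at 14.3 FPKM in replicate 4 (others 11.3 to 11.5 FPKM) and Timp2 at 4.69 FPKM in replicate 1 (others 2.97 to 3.19 FPKM). All 7 livers were the highest of their group.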

How the results depend on the processing

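The count of listed genes called stayed at 0 in 256 of 258 alternative fits over the 9 comparisons. The exceptions both left out treated replicate 4 of the Ncoa5+/- label and called 1 gene, Fn1: in treated livers labelled Ncoa5+/- against untreated wild type livers, and for metformin over both genotypes. Over fits that left out 1 mouse each, these 2 counts ran from 0 to 1. The median log2 fold change of the list moved by less than 1 SD between mice in all 258 alternative fits. That SD, 0.13 at 20 weeks and 0.11 at 39 weeks, is as large as the medians themselves, so this limit cannot show a stable direction. Without single mice, the median of genotype at 20 weeks ran from -0.23 to -0.07. At 39 weeks it changed sign, from -0.03 to 0.1 for genotype in untreated mice and from -0.09 to 0.02 for metformin in mice labelled Ncoa5+/-. Of 913 alternative values of named genes, 911 kept their direction and their side of the threshold and 2, those of Fn1, passed it. The alternative with a pseudocount of 0.1 and a limit of 0.2 FPKM was chosen after seeing the data. No paired analysis was possible because replicate numbers follow accession order and mark no shared animal or batch. Without counts, precision rests on 3 to 5 mice a group, and genes under 1 FPKM are the least certain.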
